A study of Mus musculus with 2 samples.

Results

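The peaks described here are all those that 2 deposited peak lists place on chromosome 8 of the mouse, 4977 of 45579 peaks in the shDnmt3L library and 5621 of 55292 in the shGFP library. They were taken by chromosome name alone, so all of them are members and none was filtered out. The chromosome itself was chosen by its peak density in these same lists, and its end from 110 Mb on by the crowding of peaks there. Density, width, sharing and score rank are therefore given as descriptions, with no test. A peak belonged to the dense end when its midpoint lay at 110 Mb or beyond, which gave 1807 shDnmt3L and 2012 shGFP peaks, and the 3170 and 3609 other peaks are called the rest.

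Both libraries came from E14 embryonic stem cells, a mouse pluripotent line, transfected with a hairpin against Dnmt3L (shDnmt3L) or with a control hairpin against GFP (shGFP). With a single library in each group there is no replicate error for any value, and every difference is one between these libraries. The sample names speak of MeDIP and the design text of 5mC, whereas the labels name a kit that captures 5-hydroxymethylcytosine, so the peaks are called enrichment peaks here without naming the mark. The labels do not give clone, passage, time after transfection or karyotype, and the level of Dnmt3L was not analysed here.

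Dnmt3L is a partner of the de novo DNA methyltransferases that has no catalytic activity of its own and stimulates Dnmt3a and Dnmt3b. The 5-methylcytosine these enzymes write can be oxidised by the Tet enzymes to 5-hydroxymethylcytosine, a mark known to be plentiful in embryonic stem cells. Mouse chromosomes are telocentric, with the centromere at the low-coordinate end, so the dense end is the telomere side of the long arm. An extra copy of chromosome 8 is known as a common change of mouse embryonic stem cells in culture. Copy number was not measured, and more copies of the chromosome cannot be told apart from more enrichment per copy in these lists.

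Coordinates are those of the files on mm9, per the submitters' processing notes, with the first base counted as 1. The first chromosome 8 peak began at 3140067 and the last ended at 131268710, which was taken as the length of the chromosome and leaves 21.3 Mb for the dense end. No genome or gene annotation of that build was used, so peaks are given by position, without gene names or sequence. The score is the authors' own value for each peak, and it was used only to rank peaks within a list, as a percentile of all peaks of that library, or as a minimum. Read depth is unknown. Intervals on peak numbers, shares and ratios are exact 95% intervals that cover counting error only and treat neighbouring peaks as independent. Those on ratios of list shares also treat the lists as independent of each other, although most peaks are shared.

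The telomere-side end of chromosome 8 carried close to 3 times as many peaks per Mb as the rest of the chromosome in both libraries. In shDnmt3L the density was 85.0 peaks per Mb (95% Poisson interval 81.1 to 89.0) in the dense end and 28.8 (27.8 to 29.8) in the rest, a ratio of 2.95 (2.78 to 3.12). In shGFP it was 94.6 peaks per Mb (90.5 to 98.8) in the dense end and 32.8 (31.7 to 33.9) in the rest, a ratio of 2.88 (2.73 to 3.05). The contrast was larger in covered length than in peak number. Peaks covered 29.0% of the dense end and 8.69% of the rest in shDnmt3L, a ratio of 3.34, and 26.0% and 7.74% in shGFP, a ratio of 3.36.

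**Figure D1:**
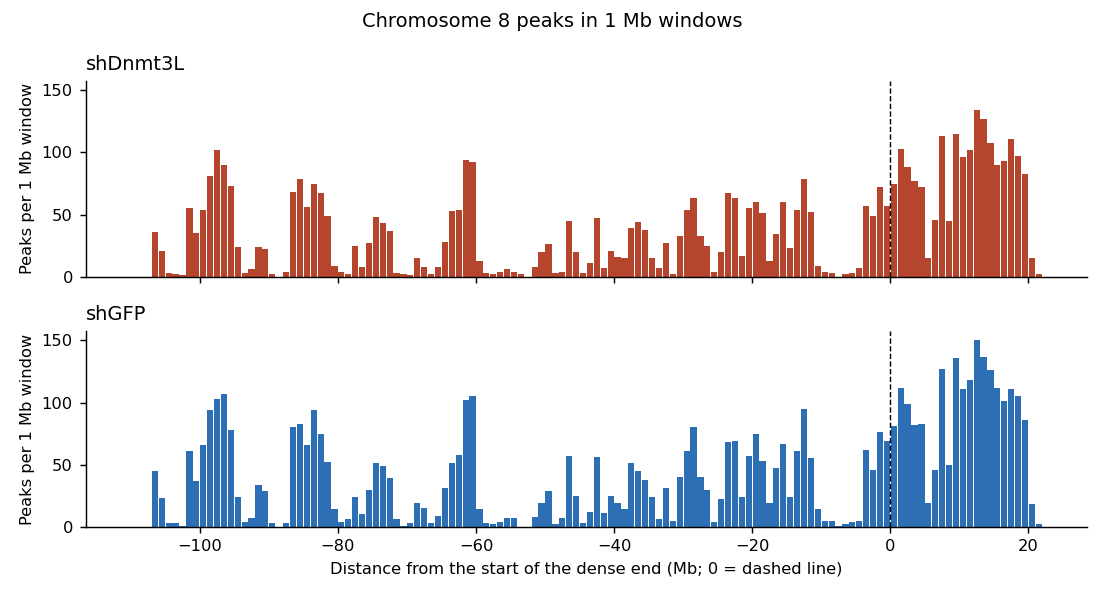
Number of peak midpoints in each 1 Mb window of chromosome 8 in shDnmt3L (upper) and shGFP (lower), against the distance of the window from the start of the dense end in Mb, with that start at the dashed line. The highest windows hold 134 shDnmt3L and 150 shGFP peaks and lie to the right of the line, while blocks of peaks and near-empty stretches alternate to its left.

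Within the dense end the windows were high but uneven. Its 22 windows held from 2 to 134 shDnmt3L peaks with a median of 91.5, and from 2 to 150 shGFP peaks with a median of 103. The 110 windows of the rest held from 0 to 102 shDnmt3L peaks with a median of 21, and from 0 to 107 shGFP peaks with a median of 24. The groups of windows thus overlapped, and the rest had blocks that reached the level of the dense end. Windows with 100 or more peaks numbered 8 in the dense end and 1 in the rest in shDnmt3L, and 12 and 4 in shGFP.

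The 5 windows with most peaks all lay in the dense end. The first, from 122000001 to 123000000, held 134 shDnmt3L and 150 shGFP peaks, and the neighbouring one from 123000001 to 124000000 held 127 and 137. In this second window the peaks covered 581 kb in shDnmt3L and 482 kb in shGFP, and their median width was 3768 bp in shDnmt3L and 3142 bp in shGFP. The other 3 began at 119000001, 117000001 and 124000001 and held between 126 and 136 shGFP peaks. Of these, the window from 117000001 held 113 shDnmt3L and 127 shGFP peaks, and that from 124000001 held 108 and 126. Peaks of these 5 windows also ranked high in score, with median percentiles of 65.2 to 86.8 in shDnmt3L and 67.3 to 87.7 in shGFP.

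The boundary at 110 Mb did not mark a step. The windows just outside it, from 108000001 and 109000001, held 72 and 57 shDnmt3L peaks and 76 and 69 shGFP peaks, and the windows just inside, from 110000001 and 111000001, held 75 and 103 shDnmt3L peaks and 81 and 112 shGFP peaks. A step lay farther back, between the window from 105000001, with 7 shDnmt3L and 5 shGFP peaks, and the window from 106000001, with 57 and 62. The density also differed inside the end, with 104 peaks per Mb between 120 and 130 Mb and 74.9 between 110 and 120 Mb in shDnmt3L, and 116 and 83.5 in shGFP. In the last 1.27 Mb, beyond 130 Mb, it was 13.4 peaks per Mb in shDnmt3L and 15.8 in shGFP, which rests on 17 and 20 peaks.

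Blocks and deserts alternated along the whole chromosome at the same places in both libraries. Runs of 3 or more windows with at least 50 peaks in each library lay from 108000001 to 115000000 (544 shDnmt3L and 602 shGFP peaks) and from 119000001 to 130000000 (1156 and 1293 peaks). In the rest there were 5 such runs besides the start of the first, and the richest, from 10000001 to 15000000, held 400 shDnmt3L and 448 shGFP peaks. The others began at 23000001, 46000001, 89000001 and 96000001. The longest run with under 10 peaks per window in each library spanned 8 Mb from 51000001 to 59000000 and held 29 shDnmt3L and 31 shGFP peaks. Next was a run of 6 Mb from 100000001 to 106000000, with 19 and 22 peaks, which adjoined the rise toward the dense end.

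Among the 5 windows with fewest peaks between the first and the last peak, those from 21000001 and from 57000001 held 0 peaks in both libraries. The window from 102000001 held 0 shDnmt3L peaks and 1 shGFP peak, that from 7000001 held 1 in each, and that from 56000001 held 2 shDnmt3L peaks and 0 shGFP peaks. Over the 132 windows of the chromosome, the peak numbers of the libraries had a Pearson correlation of 0.995, within the dense end 0.992 and within the rest 0.992. The windows share the same genome sequence and mappability in both libraries, so this describes their likeness and nothing more.

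High density was not limited to the telomere side. Chromosome 8 as a whole had 37.9 peaks per Mb in shDnmt3L and 42.8 in shGFP, against medians of 17.0 and 20.5 over the 18 other autosomes, and no other autosome reached it in either library. The rest of chromosome 8 taken alone, at 28.8 and 32.8 peaks per Mb, was still above the densest other autosome, chromosome 11, at 26.5 and 31.2. When each autosome was split at the same distance from its last peak, the last 21.3 Mb of the others had from 13.5 peaks per Mb on chromosome 14 to 52.1 on chromosome 4 in shDnmt3L, and from 16.7 to 63.4 on the same chromosomes in shGFP.

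**Figure D2:**
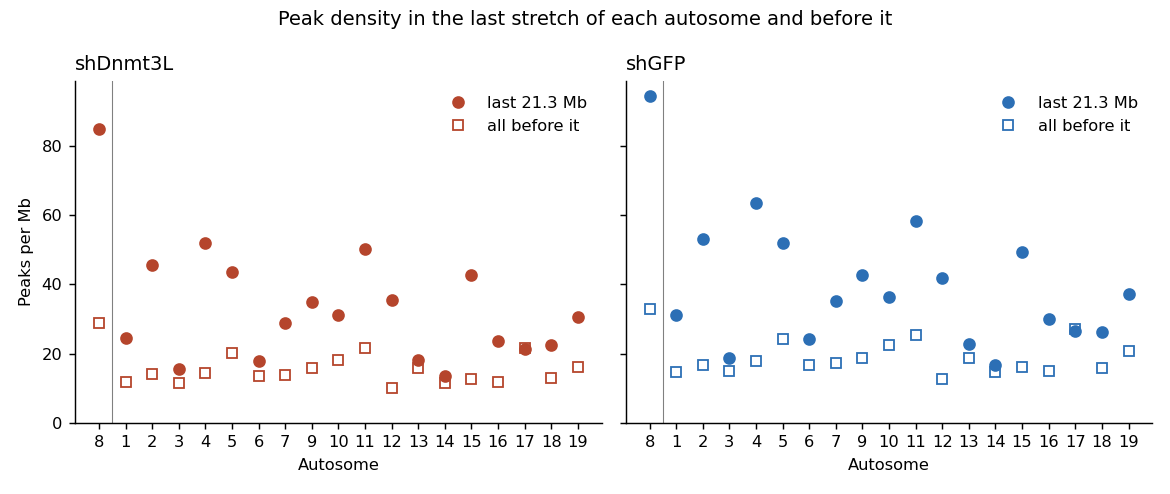
Peaks per Mb in the last 21.3 Mb of each autosome (filled circles) and in all that lies before it (open squares), in shDnmt3L (left) and shGFP (right), with chromosome 8 first. Chromosome 8 is highest on both measures in each library, while its ratio of last stretch to the part before is exceeded on 4 other autosomes.

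A denser telomere side was also found on 17 of the 18 other autosomes, the exception being chromosome 17, and the ratio of chromosome 8 lay within their range. The ratio of the last stretch to the part before it was 2.95 on chromosome 8 in shDnmt3L, against a median of 2.02 and a range of 0.982 to 3.61 over the others. In shGFP it was 2.88, against a median of 2.03 and a range of 0.979 to 3.56. Chromosomes 2, 4, 12 and 15 had a higher ratio than chromosome 8 in both libraries. The part before the last stretch was again densest on chromosome 8, at 28.8 and 32.8 peaks per Mb, against at most 21.7 and 27.0, on chromosome 17. The densest run of 21 windows anywhere on another autosome began at 111000001 on chromosome 5, with 57.6 peaks per Mb in shDnmt3L and 69.2 in shGFP, against 88.0 and 98.1 in the run from 109000001 on chromosome 8.

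Peaks on chromosome 8 stood high in the score ranking of their own list, and most so in the dense end. The median percentile of the score was 69.4 in the dense end, 56.2 in the rest and 48.8 on the other autosomes in shDnmt3L. In shGFP it was 70.3 in the dense end, 55.1 in the rest and 48.9 on the other autosomes. The last stretches of the other autosomes, split at the same distance from their last peak, had at most 59.4 in shDnmt3L and 59.9 in shGFP. Both values were on chromosome 4, and the medians over these stretches were 50.6 and 51.8. Of the dense end's peaks, 24.1% in shDnmt3L and 24.2% in shGFP were in the top decile of their list, against 9.04% and 9.14% of the peaks on other autosomes. The medians of whole chromosomes were 61.0 in shDnmt3L and 60.5 in shGFP for chromosome 8, and at most 53.6, on chromosome 4, and 53.2, on chromosome 17, elsewhere. Score and width rise together, and among peaks of like width the median percentile of chromosome 8 was 53.4 in shDnmt3L and 51.4 in shGFP, so most of the distance from the middle of the list was shared with width.

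The density ratios therefore grew with the minimum score. At scores of 50 or more, which is the whole list, chromosome 8 had 2.24 times the median density of the other autosomes in shDnmt3L and 2.09 times in shGFP. At 200 or more the ratios were 3.40 and 3.34, at 400 or more 5.15 and 4.98, and at 800 or more, with 141 shDnmt3L and 127 shGFP peaks on chromosome 8, they were 6.78 and 6.51. At 400 or more, 21.8% of all shDnmt3L and 20.6% of all shGFP peaks were on chromosome 8. The ratio of the dense end to the rest was 5.59 and 5.94 at this minimum.

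**Figure D3:**
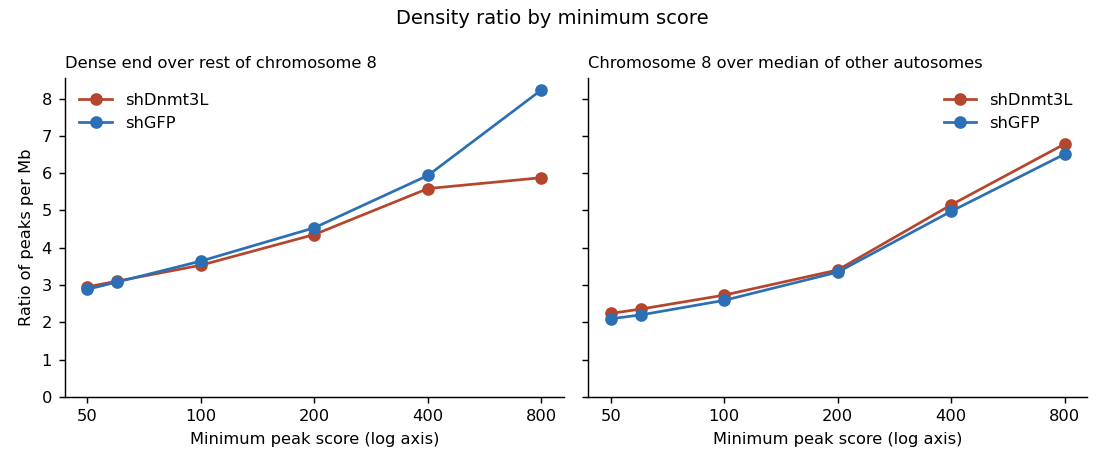
Ratio of peaks per Mb in the dense end to the rest of chromosome 8 (left) and of chromosome 8 to the median of the 18 other autosomes (right), against the minimum score on a log axis, in shDnmt3L and shGFP. Both ratios are larger at each higher minimum in both libraries, and reach 5.88 and 8.23 on the left and 6.78 and 6.51 on the right at 800.

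Part of this contrast was also found between windows of roughly like density. The classes of peak number were wide, and the windows of chromosome 8 held more peaks on average within them. Windows of 60 to 99 peaks held 1954 shDnmt3L peaks in 25 windows on chromosome 8 and 6528 in 93 elsewhere. The part of this remaining difference in density was not tested. In windows of 60 to 99 peaks, the median percentile was 66.1 on chromosome 8 (25 windows) and 58.6 on the other autosomes (93 windows) in shDnmt3L, and 60.8 (25 windows) and 57.5 (153 windows) in shGFP. In windows of 30 to 59 peaks it was 53.4 on chromosome 8 and 50.9 elsewhere in shDnmt3L, and 53.3 and 49.3 in shGFP. In windows of under 10 peaks it was 38.8 on chromosome 8 and 39.2 elsewhere in shDnmt3L, and 38.6 and 38.5 in shGFP. Only at under 10 peaks did the windows of chromosome 8 thus rank like those elsewhere. At 10 to 29 peaks the median percentile was 48.6 on chromosome 8 and 44.4 elsewhere in shDnmt3L. In shGFP the values of that class were 44.9 and 43.8. At 100 or more peaks, chromosome 8 had 9 windows in shDnmt3L and 16 in shGFP, and all other autosomes together 1 and 7.

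**Figure D4:**
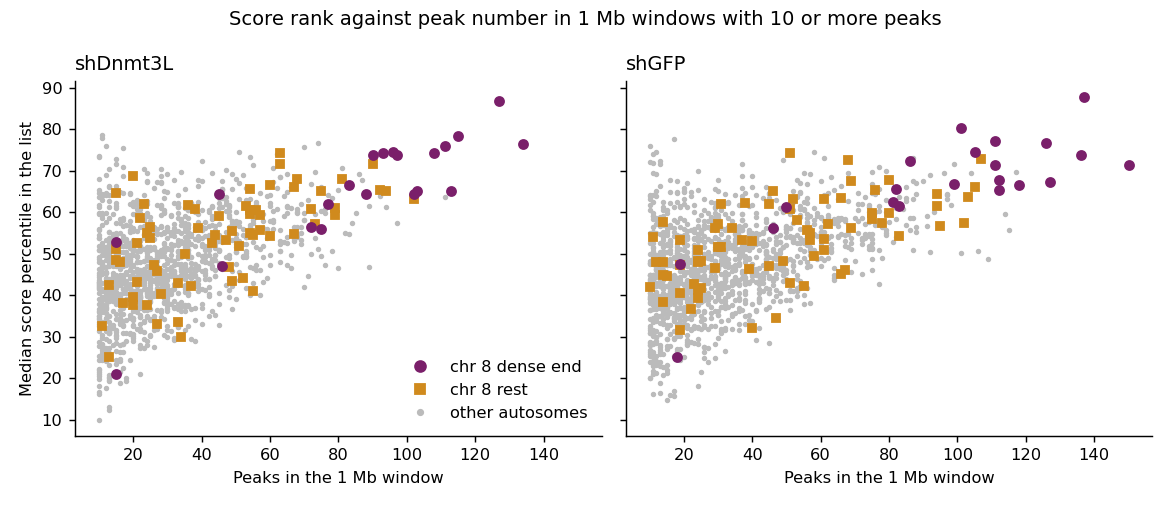
Median score percentile of the peaks in each 1 Mb window, within their own list, against the number of peaks in the window, for windows of 10 or more peaks in shDnmt3L (left) and shGFP (right). Most windows of the dense end lie toward the upper right, up to a median percentile of 86.8 in shDnmt3L and 87.7 in shGFP, but the sparse one from 130 Mb lies at the lower left, at 20.9 and 25.1, and the other chromosome 8 windows lie among those of the other autosomes.

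Peaks of the dense end were also wider. The median width was 2665 bp in the dense end, 2474 bp in the rest and 2359 bp on the other autosomes in shDnmt3L. In shGFP it was 2324 bp in the dense end, 2125 bp in the rest and 1977 bp elsewhere. The last stretches of the other autosomes, split at the same distance from their last peak, were below the dense end. They had at most 2462.5 bp, on chromosome 4, in shDnmt3L and 2128.5 bp, on chromosome 11, in shGFP. The quartiles overlapped widely, at 2337 and 3872 bp in the dense end and 2173 and 3350 bp in the rest in shDnmt3L, and at 1966 and 3259 bp and 1769 and 2528 bp in shGFP. Whole chromosome 8 medians of 2524 and 2191 bp were above those of all 18 other autosomes, of which the highest were 2405 bp on chromosome 4 in shDnmt3L and 2037 bp on chromosome 5 in shGFP. The difference between the dense end and the rest, 191 bp in shDnmt3L and 199 bp in shGFP, was 324.5 and 310 bp among peaks that scored 100 or more, and 384.5 bp in shDnmt3L after merging of peaks within 500 bp.

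Neighbouring peaks lay close to each other in the dense end, and a peak caller may join or split such neighbours. The median gap between neighbours was 3846 bp in the dense end, 8472 bp in the rest and 14672 bp on the other autosomes in shDnmt3L, and 3889, 8115 and 13202 bp in shGFP, in the same order. Gaps under 1 kb made up 19.8% in the dense end, 11.6% in the rest and 7.45% elsewhere in shDnmt3L, and 19.99%, 11.3% and 8.19% in shGFP. Of the shDnmt3L peaks, 7.69% in the dense end, 4.45% in the rest and 2.99% elsewhere lay over 2 or more shGFP peaks. The reverse case, a shGFP peak over 2 or more shDnmt3L peaks, made up 1.39% in the dense end, 0.499% in the rest and 0.400% elsewhere.

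Most chromosome 8 peaks had a partner, that is, an overlap of at least 1 bp with a peak of the other list. In shDnmt3L this held for 92.0% of the peaks in the dense end (exact 95% interval 90.6 to 93.2%), 88.1% in the rest (87.0 to 89.2%) and 87.2% on the other autosomes (86.8 to 87.5%). In shGFP it held for 88.8% in the dense end (87.4 to 90.2%), 81.2% in the rest (79.9 to 82.4%) and 73.4% on the other autosomes (73.1 to 73.8%). Put as peaks without a partner, chromosome 8 had 521 in shDnmt3L (10.5%) and 904 in shGFP (16.1%), against 12.6% and 25.5% of the whole lists. For shGFP, the chromosome 8 share of 83.9% was above that of every other autosome, which reached 75.8% at most. For shDnmt3L, chromosome 8 at 89.5% was exceeded by chromosomes 17 and 16. The dense end was also set against the last stretches of the other autosomes, split at the same distance from their last peak. In shDnmt3L their median share was 88.7%, and that of chromosome 4, at 93.0%, was above the dense end. In shGFP their median was 75.8%, and the highest, 80.0% on chromosome 4, was below the dense end. The higher cover of the dense end makes an overlap by position alone more frequent there, and its part in these shares was not tested. Between windows of roughly like density, the shDnmt3L share went either way. It was 86.9% on chromosome 8 and 87.6% elsewhere at 30 to 59 peaks, and 91.1% and 90.2% at 60 to 99. In shGFP it was higher on chromosome 8 in every class, with 81.3% and 74.7% at 30 to 59 peaks, and 84.1% and 79.9% at 60 to 99. With an overlap of 50% of both peaks, the share on chromosome 8 was 83.1% in shDnmt3L, where 6 other autosomes were above it, and 73.5% in shGFP, still the highest. The lists differ in length, and with equal lengths the order of the libraries on chromosome 8 turned round, with 84.3% in shDnmt3L and 91.0% in shGFP. The median of the other autosomes turned too, from 86.8% in shDnmt3L and 73.3% in shGFP to 81.6% and 83.6%. The gap between the dense end and the rest was 3.84 percentage points in shDnmt3L (1.38 to 6.22 from the outer bounds of both intervals) and 7.63 in shGFP (4.91 to 10.3). At 50% overlap it was 2.61 in shDnmt3L, with bounds of −0.45 to 5.62 that included 0, and 3.97 in shGFP (0.584 to 7.31). At scores of 100 or more it was 7.23 in shDnmt3L and 6.44 in shGFP, and with equal lists 6.22 and 5.01.

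Since sharing follows the score, it was also compared at like score. Other autosomes, weighted to the score deciles of the dense end, had a shared share of 88.5% in shDnmt3L and 83.7% in shGFP, below the 92.0% and 88.8% of the dense end itself. Weighted to the deciles of the rest, they had 87.6% in shDnmt3L and 76.7% in shGFP, against 88.1% and 81.2% in the rest. The contrast was visible among low-scoring shGFP peaks. In the third decile of shGFP scores, 67.5% of the peaks in the dense end (58.4 to 75.6%), 53.9% in the rest (48.0 to 59.6%) and 48.7% on the other autosomes (47.3 to 50.1%) had a partner. In the lowest decile of shDnmt3L scores the order was the opposite, with 67.3% (57.1 to 76.5%) in the dense end, 68.8% (63.0 to 74.3%) in the rest and 73.5% (72.1 to 74.8%) elsewhere. The same order was found in the second decile, with 72.2% (63.5 to 79.8%) in the dense end, 76.3% (71.0 to 81.0%) in the rest and 81.8% (80.6 to 82.9%) elsewhere. The intervals of the dense end and the other autosomes overlapped in the lowest decile but not in the second.

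**Figure D5:**
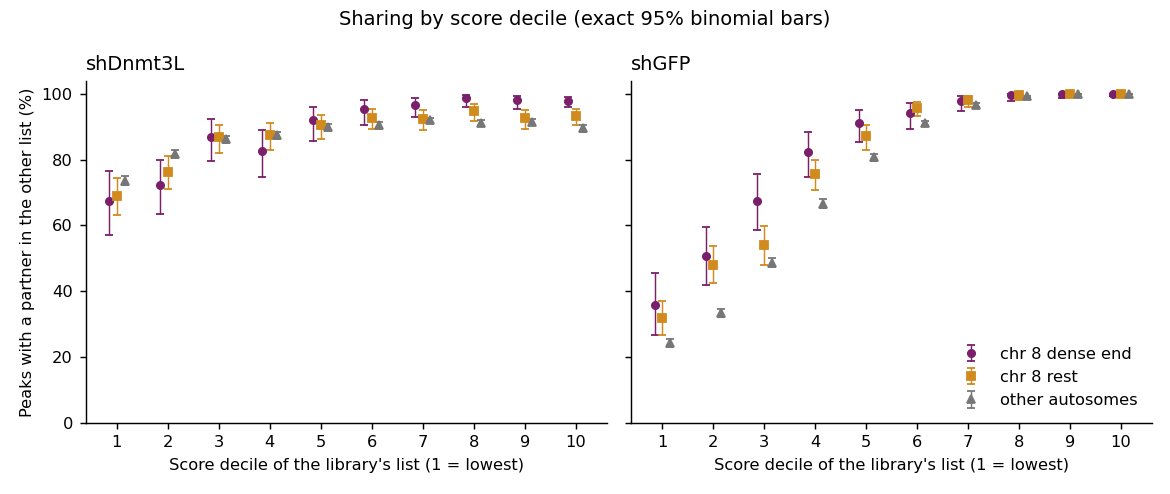
Share of peaks with a partner in the other list, by decile of the score in their own list (1 the lowest), for the dense end, the rest of chromosome 8 and the other autosomes in shDnmt3L (left) and shGFP (right), with exact 95% binomial bars. In shGFP all series reach 100% at the top decile, while in the top shDnmt3L decile the dense end stands at 97.7% and the other autosomes at 89.4%.

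Counted per Mb, the surplus of chromosome 8 lay mainly in shared peaks. Shared shGFP peaks numbered 35.9 per Mb on chromosome 8 and 15.5 on the other autosomes pooled, a ratio of 2.31, and shared shDnmt3L peaks 33.9 and 15.1, a ratio of 2.25. Peaks called in shGFP alone numbered 6.89 per Mb on chromosome 8 and 5.61 elsewhere, a ratio of 1.23, and those called in shDnmt3L alone 3.97 and 2.22, a ratio of 1.79. In density of peaks called in shGFP alone, 2 other autosomes were above chromosome 8, the highest being chromosome 11 at 7.59 per Mb. In the dense end the ratios to the other autosomes were 5.41 for shared and 1.88 for unshared shGFP peaks, and 5.18 and 3.08 in shDnmt3L.

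The unshared peaks of chromosome 8 were low in score. In shDnmt3L their median percentile was 28.0 against 64.3 for shared peaks, and in shGFP it was 16.7 against 69.3. The other autosomes had the same order, with 32.8 against 50.8 in shDnmt3L and 17.9 against 61.7 in shGFP. Many unshared peaks of chromosome 8 lay next to a peak of the other list. In the dense end 77.2% of unshared shDnmt3L peaks and 60% of unshared shGFP peaks were within 5 kb of one, against 37.2% and 31.5% on the other autosomes. Peaks were closer to each other in the dense end in any case: within a list, 58.5% of the gaps between neighbours there were under 5 kb in shDnmt3L and 57.4% in shGFP, against 25.9% and 27.5% on the other autosomes. A gap reaches only to the next peak along the chromosome, whereas the nearest peak of the other list may lie on either side. The gap percentages are therefore not a like measure for the nearness of unshared peaks. The part of the density of the dense end in that nearness was not tested. Scores of 100 or more were found in 154 of the 521 unshared shDnmt3L peaks (29.6%) and in 33 of the 904 unshared shGFP peaks (3.65%). On the other autosomes the shares were 34.4% and 4.17%, so this difference between the libraries was not particular to chromosome 8.

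The strongest shDnmt3L peaks of the chromosome without a shGFP partner were wide and lay in the rest. The first, from 89990737 to 89997212, spanned 6476 bp, scored 1037 and had its nearest shGFP peak 3291 bp away. The next, from 47375458 to 47384087, spanned 8630 bp, scored 915 and lay 10731 bp from a shGFP peak. The third, from 72605922 to 72613604, spanned 7683 bp, scored 887 and lay 1109 bp from one. The fourth and the fifth began at 12395612 and 28193263, were 9279 and 9068 bp wide and scored 826 and 794. All 5 were in the top 2% of their list.

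The strongest shGFP peaks without a shDnmt3L partner ranked much lower. The first, from 97096717 to 97102051, was 5335 bp wide and scored 185, at the 78.9th percentile, with a shDnmt3L peak 901 bp away. Next came a 2495 bp peak of the dense end from 127167012 to 127169506, with a score of 151. The following pair lay just before the boundary. They began at 109979431 and 109609316, spanned 4099 and 5317 bp and scored 151 and 142. The fifth, from 49111172 to 49112675, was 1504 bp wide and scored 139.

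The 5 highest-scoring chromosome 8 peaks of each library all had a partner, and most were wide. In shDnmt3L they began at 123592084, 24240251, 74204740, 111466344 and 46099626, and were 23574, 22402, 14656, 10663 and 12856 bp wide. The first, in the dense end, scored 3153, the second highest score of its list, and shGFP peaks, 4 in number, covered 51.6% of its length. The fourth, also in the dense end, was covered to 92.4% by 1 shGFP peak. In shGFP the 5 began at 24240446, 46099062, 121925941, 111466889 and 13610605, and were 19253, 14037, 4343, 9851 and 3801 bp wide. The peaks of the libraries at 24240251 and 24240446, at 46099626 and 46099062, and at 111466344 and 111466889 overlapped, so 3 places were among the first 5 of both. Every one of these shGFP peaks had at least 91.6% of its length under a shDnmt3L peak.

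Fewer peaks were called on chromosome 8 in shDnmt3L than in shGFP, but the deficit was smaller than on any other autosome. As a percentage of the shGFP number, the change in shDnmt3L was −11.5% on chromosome 8, −10.2% in its dense end and −12.2% in its rest, whereas on the other autosomes it was between −21.1%, on chromosome 3, and −15%, on chromosome 11. Covered length was 11.9% higher in shDnmt3L on chromosome 8, and between 0.379%, on chromosome 17, and 11.1%, on chromosome 2, higher on the others. As a share of its list, the dense end held 3.96% of shDnmt3L and 3.64% of shGFP peaks, a ratio of 1.09 (1.02 to 1.16), and the rest held 6.95% and 6.53%, a ratio of 1.07 (1.02 to 1.12). With lists of equal length both intervals included 1, at 1.00 (0.937 to 1.07) for the dense end and 1.05 (0.994 to 1.10) for the rest. When scores under 100 were left out of each list, the interval included 1 for the dense end, at 1.06 (0.977 to 1.14), but not for the rest, at 1.09 (1.02 to 1.16).

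No single window of chromosome 8 had an interval that left out an equal share of the lists. In 91 windows with at least 20 midpoints over both lists, the ratio of list shares, shDnmt3L over shGFP, had a median of 1.08 and a range of 0.647 to 1.30. All 91 intervals included 1, so 0 windows were called higher and 0 lower, where 0.0719% of 1390 windows genome-wide were called higher and 0% lower. These intervals treat the peak numbers of the libraries as independent, although most peaks are shared, so they could hardly leave out 1. The count of 0 therefore does not show that the shares were equal. The ratio was above 1 in 19 of 21 windows of the dense end and in 52 of 70 of the rest. These counts were not repeated with lists of equal length, nor set against the windows genome-wide. With equal lists the dense end as a whole had a ratio of 1.00. Its windows from 122000001, 123000001, 119000001 and 124000001 then had 0.978, 0.984, 0.943 and 0.947, and that from 117000001 had 1.04. Raw peak numbers, from lists of 45579 shDnmt3L and 55292 shGFP peaks, were lower in shDnmt3L in 101 of all 132 windows, higher in 11 and equal in 20. The equal ones include the first 3 windows and those from 21000001 and 57000001, which held 0 peaks in both libraries.

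The 5 highest ratios lay in the rest. They were found in the windows from 71000001 with 15 shDnmt3L and 14 shGFP peaks, a ratio of 1.30 (0.585 to 2.91), and from 107000001 with 49 and 46, a ratio of 1.29 (0.846 to 1.98). The windows from 59000001, 32000001 and 46000001 had ratios of 1.28, 1.26 and 1.26. The 5 lowest ratios lay in the rest too. They were 0.647 (0.238 to 1.63) in the window from 42000001, with 8 and 15 peaks, and 0.758, 0.780, 0.780 and 0.830 in those from 75000001, 29000001, 99000001 and 92000001.

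Place by place, peaks were wider in shDnmt3L. Among 4094 chromosome 8 peaks that overlapped their partner one-to-one, 83.5% were wider in shDnmt3L, 557 were narrower and 119 equal. The median width of these peaks was 2500 bp in shDnmt3L and 2270 bp in shGFP, and the difference within a pair had a median of 177 bp, with quartiles of 32 and 433 bp. That median was the largest of the 19 autosomes, but as a ratio it was 1.07, within the 1.05 to 1.07 of the others and exceeded on chromosomes 3 and 14. In the dense end the median ratio was 1.07 over 1473 pairs, and in the rest 1.07 over 2621.

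Pairs that were at least 1.5-fold wider in shDnmt3L made up 9.09% on chromosome 8 (372 pairs), close to the 8.6% of all 37952 pairs. They made up 8.01% in the dense end and 9.69% in the rest. Pairs at least 1.5-fold narrower made up 1.37% (56 pairs), against 1.29% of all pairs. The change in width on chromosome 8 was thus near that of the whole lists.

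The largest gain in width lay in the rest, beside the 8 Mb desert, where a shDnmt3L peak from 59795984 to 59829854 was 33871 bp wide and the shGFP peak under it 1735 bp. Its score rank was the 99.9th percentile in shDnmt3L, while the shGFP peak stood at the 13.5th. The second gain, in the dense end, was a 19409 bp shDnmt3L peak from 123636659 to 123656067 over a 3228 bp shGFP peak. The next 3 began at 73007182, 12380917 and 87300974, with 14853, 14466 and 13280 bp in shDnmt3L and 2156, 2262 and 2102 bp in shGFP. All 5 were above the 99.8th percentile of the shDnmt3L list, and their shGFP peaks were between the 13.5th and the 71.0th.

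The largest losses in width were smaller. A peak of 6556 bp in shDnmt3L from 122470215 to 122476770 lay within a peak of 10501 bp in shGFP, a change of −3945 bp. The other 4 began in shDnmt3L at 83311167, 125311974, 23812995 and 117366575, with 2670, 1972, 1659 and 2400 bp in shDnmt3L and 5677, 4873, 4305 and 5035 bp in shGFP. Of the 5, those from 122470215, 125311974 and 117366575 were in the dense end.

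On chromosome 8, 58 shDnmt3L and 12 shGFP peaks were 10 kb or wider, with Poisson intervals of 44.0 to 74.98 and of 6.20 to 20.96. They were 1.17% of the chromosome's shDnmt3L peaks and 0.213% of its shGFP peaks, where 0.535% and 0.0524% of the whole lists were this wide. The dense end held 28 in shDnmt3L and 6 in shGFP, and the rest held 30 and 6. Of the 58 shDnmt3L peaks, 39 lay over 2 or more shGFP peaks, 17 over 1 and 2 over none, whereas over the whole list 104 of 244 lay over none. A median of 65.4% of the length of the 58 was under shGFP peaks, in the dense end 72.5% and in the rest 50.9%. These counts depended on whether neighbours were joined: with peaks within 500 bp merged they were 110 in shDnmt3L and 45 in shGFP.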

How the data were processed

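Enrichment was measured in 2 libraries, 1 of shDnmt3L and 1 of shGFP E14 cells, and 1 peak list per library was deposited. The submitters' processing notes name the build mm9 and the tools MACS 1.4.1, Bowtie 0.12.7 and CASAVA 1.8, with no roles given. The deposited score of each peak has a minimum of 50 and no stated definition. Read depth, any control library and the handling of duplicate reads: not given in the sources used here.

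Computation used scipy 1.17.1, pandas 2.3.3 and numpy 2.4.6 under Python 3.11.15. Midpoints placed peaks in windows of 1 Mb and on either side of 110 Mb. Chromosome lengths ran to the last peak of either list. Intervals were exact Poisson, Clopper-Pearson and conditional binomial. The overlap code was tested on the shGFP list against a randomly thinned and widened copy of it, and the ratio intervals on simulated Poisson counts. Those counts were independent, unlike the shared peaks of the libraries. No p-value was computed, since each group has 1 library.

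Named windows were the 5 with most and fewest peaks and with the highest and lowest ratio of list shares. Named peaks were, per library, the 5 of highest score, whether or not they had a partner, and the 5 of highest score without one. Named pairs were the 5 with the largest gain and the 5 with the largest loss of width. Ties were ordered by width. The chromosome, the boundary and these rules were chosen with earlier results of these data known, and the minimum scores, the windows of like density and the comparison at like score after its values were seen. The alternatives were equal list lengths, a score of at least 100, merged peaks, other boundaries, lengths and overlap rules, covered length, other minimum widths, ranks at like width and windows of 500 kb. The only reference tables at hand were of GRCm38, so no gene was tied to a peak and the planned look-up of genes was not made.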

Additional observations from a re-analysis of the deposited data

How the results depend on the processing

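Of 85 alternative values of the main comparisons, 50 kept within their tolerance, 32 left it, 3 ratios lost an interval without 1, and 0 reversed. The tolerance was the exact interval, for medians the binomial one, and for counts a factor of 1.5. The 25 recomputed ratios of named windows all stayed within their intervals. These intervals were wide, so this could hardly fail: the window from 59000001 went from 1.28 to 2.06 at scores of 100 or more. At that minimum the windows from 71000001, 42000001, 29000001, 99000001 and 92000001 had under 20 midpoints and no ratio. Lists of equal length left shDnmt3L whole, so its densities, widths and ranks could not change. The ratio of densities, dense end over rest, was between 2.70 and 3.64. It was 3.53 in shDnmt3L and 3.64 in shGFP at scores of 100 or more, 3.34 and 3.36 by covered length, 2.74 and 2.70 with the boundary 5 Mb later, and in shGFP 3.08 with equal lists, 2.72 with peaks within 500 bp merged and 2.71 with the boundary 5 Mb earlier. The median width of the dense end minus the rest was 324.5 bp in shDnmt3L and 310 bp in shGFP at scores of 100 or more, and 384.5 and 273 bp with merging, against 191 and 199 bp. The shared share of chromosome 8 in shDnmt3L was 87.3% at scores of 100 or more, 84.3% with equal lists, 90.4% with merging, 83.1% at 50% overlap and 90.4% within 500 bp. In shGFP it was 91.0% with equal lists, 73.5% at 50% overlap and 85.1% within 500 bp. With equal lists shGFP thus had the higher share, as in the median of the other autosomes. The dense end minus the rest in shared share was 7.23 points in shDnmt3L at scores of 100 or more. At 50% overlap it was 3.97 points in shGFP and 2.61 in shDnmt3L, where the value kept within its tolerance but its own bounds, −0.45 to 5.62, included 0, as under no other alternative of this difference. Ranked among peaks of like width, the median percentile was 53.4 in shDnmt3L and 51.4 in shGFP. Broad peaks were 110 and 45 with merging, 514 and 207 at 5 kb or more, and 4 and 0 at 20 kb or more. The ratio of list shares in the dense end was 1.06 at scores of 100 or more and 1.00 with equal lists, and in the rest 1.05 with equal lists. The median width ratio of pairs was 1.06 at scores of 100 or more. For each of them the cause was not tested. With windows of 500 kb, 0 of 148 intervals excluded 1, although these too treat shared peaks as independent counts. No paired analysis was possible because there is 1 library per group, so leaving out a replicate was not possible either, and the planned gene look-up was not run. Depth, which limits how many weak peaks are called, is unknown.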
